A study of Mus musculus with 60 samples.

Results

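Gene expression of the mouse thyroid was measured with a custom Affymetrix array for genes of glycan biology and is described here against that of 7 other tissues. The members are the 6 arrays labelled thyroid, of 60 arrays in the series, each made from total RNA of 1 animal. All 6 come from the St6galnac2 line. The wild-type (WT, +/+) mice were 2 males (animals 9362 and 9099) and 1 female (9094), and the knockout (KO, -/-) mice were 2 males (9361 and 9100) and 1 female (9093). The labels call the animals healthy and give no age. St6galnac2 encodes a sialyltransferase acting on the first sugar of mucin-type O-glycans.

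The comparison set holds 50 arrays. Brain (9 arrays), intestine (7) and lymph node (6) come from the same line, with 3 C57 WT mice added in brain and 3 in intestine. Kidney (9), mammary gland (7), testes (6) and thymus (6) come from WT and double knockout mice of a line that lacks B4galnt1 and B4galnt2. Thyroid was not measured in that line, so for these 4 tissues the line and the tissue cannot be told apart. Of the 7 mammary gland animals 4 were male. Lines, genotypes and sexes were pooled by tissue, and thyroid was set against the mean of the 7 tissue means. Another 4 arrays were left out because a marker went against their label. A brain array read below 6 for Fut9, an intestine array above 6 for Fut9, and 2 WT thymus arrays above 8 for Prol1.

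The thyroid makes thyroid hormone in follicles, whose cells iodinate and break down the glycoprotein thyroglobulin. Calcitonin-secreting C cells lie between the follicles, and the parathyroid glands lie beside or within the gland. A capsule of connective tissue, a dense capillary bed and resident macrophages complete it. None of the 14 follicular cell markers looked for, thyroglobulin and thyroid peroxidase among them, has a probe set named here, so the label could not be checked against follicle cells. Of the neuroendocrine and parathyroid markers only Chga was measured. Each of the 6 arrays correlated best with the mean of the other thyroid arrays, at 0.754 to 0.892 across 909 genes, with each gene taken relative to its average over the 8 tissues.

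All values are log2 expression. Array medians lay between 5.295 and 5.76 over the whole series, and the 25th percentile of all values was 4.211. Labels of the comparison tissues were also set against markers. The kept thymus arrays read low for genes of T cells: Cd2 lay between 4.67 and 5.96 there and between 7.98 and 10.60 in lymph node. Ccr9, a chemokine receptor of developing T cells, lay between 3.56 and 4.22 in thymus and between 4.70 and 8.41 in lymph node. Prol1, a gene of exocrine glands, was above 9 on 4 of 7 mammary gland arrays and 1 lymph node array. Their part in the results was not tested. Counts without thymus and without mammary gland stand with the comparison by tissue.

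Angptl1, which encodes a secreted angiopoietin-like protein, had the largest difference of the profile. The 6 thyroid arrays read 9.50, 8.12 and 7.61 in WT and 9.76, 8.01 and 8.10 in KO. Every thyroid array lay above every other array, the nearest being mammary gland at 4.66 to 6.38. Thyroid exceeded the mean of the 7 tissues by 4.18 ± 0.20 (SE, limma with Benjamini-Hochberg adjustment, adjusted p = 3.19e-24), an 18.2-fold difference. The smallest difference from a single tissue was 3.16, from mammary gland. The gene lies on chromosome 1 (GRCm38.p6, 156839023 to 156861078). By its suffix, its probe set may also detect other transcripts.

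Chga encodes chromogranin A, a protein of hormone granules that C cells and parathyroid cells store. The WT arrays read 12.73, 13.06 and 13.02, and the KO arrays 5.77, 7.79 and 12.83. Thus 4 arrays lay above every array of the other tissues, whereas those of the KO males 9361 and 9100 lay below the brain arrays (10.21 to 10.67). The thyroid mean was 10.87 ± 3.23 (SD, n = 6), 4.17 ± 0.45 (SE) above the mean of the 7 tissues (adjusted p = 3.62e-11, limma). That SE pools the spread of all tissues, so the wide spread in thyroid enters it diluted. The difference was 2.62 ± 0.77 within the St6galnac2 line, 3.14 with male and 6.22 with female thyroid arrays only, and was called in each. It exceeded brain by only 0.43 and intestine, where enteroendocrine cells carry the gene, was next at 8.76 ± 0.66 (SD, n = 7). The gene lies on chromosome 12 (102554941 to 102565027).

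The 250 bases before the start of Chga and of Angptl1 are shown because these genes differ most between thyroid and the other tissues. Both sequences are RefSeq windows of build GRCm38.p6 on the plus strand, Chga at chr12:102554691-102554940 and Angptl1 at chr1:156838773-156839022. Capitals mark TGACGTAA, a variant of the cAMP response element, the site that cAMP-activated factors of the CREB family bind.
Chga: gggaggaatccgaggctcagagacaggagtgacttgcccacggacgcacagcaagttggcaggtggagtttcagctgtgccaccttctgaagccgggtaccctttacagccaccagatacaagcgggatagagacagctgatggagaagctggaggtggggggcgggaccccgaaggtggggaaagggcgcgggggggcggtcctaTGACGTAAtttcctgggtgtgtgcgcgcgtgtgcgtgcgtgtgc
Angptl1: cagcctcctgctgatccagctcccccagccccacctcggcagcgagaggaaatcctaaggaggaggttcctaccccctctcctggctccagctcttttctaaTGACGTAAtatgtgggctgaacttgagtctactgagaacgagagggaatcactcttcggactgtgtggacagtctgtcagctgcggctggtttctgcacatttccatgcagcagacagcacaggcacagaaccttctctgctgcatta
The octamer lies 44 to 37 bases before the start in Chga and 148 to 141 bases before it in Angptl1. It was chosen after the sequences were seen and searched on both strands. Of 32851 RefSeq windows of this length 147 hold it, which is 0.447%. The palindromic element TGACGTCA (1.55% of windows), the TATA box TATAAA (12.4%) and the CCAAT box CCAAT (33.8%) were searched on both strands as well, with no match in either window. A match of letters is a description and says nothing on binding in these arrays.

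**Figure D1:**
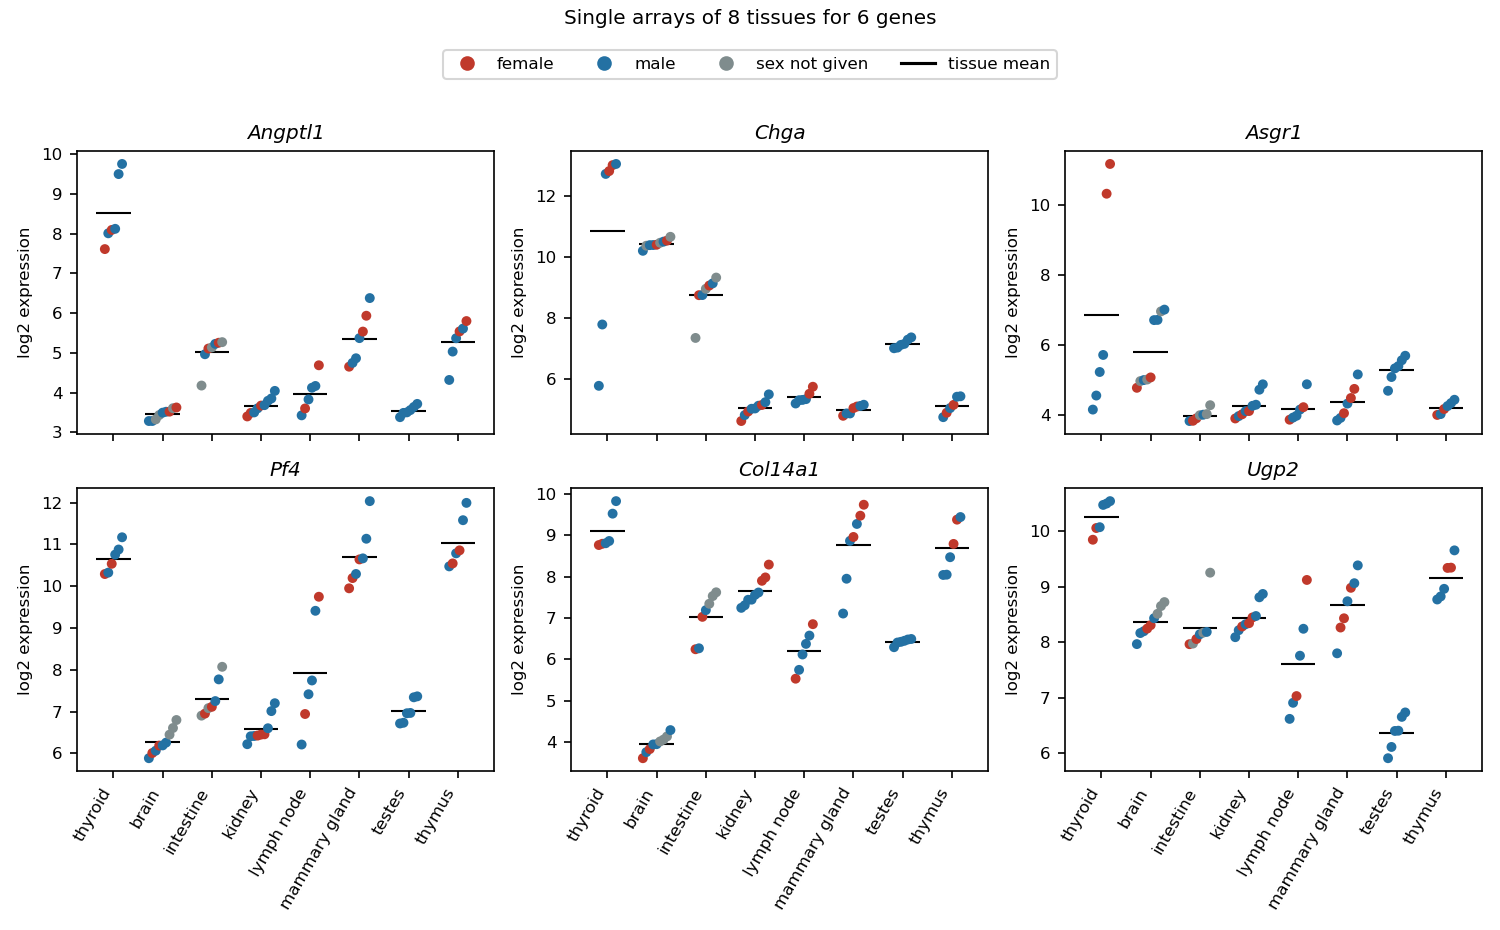
Each point is 1 array and its height is the log2 expression of Angptl1, Chga, Asgr1, Pf4, Col14a1 or Ugp2 in 8 tissues, with a bar at the tissue mean and colour for sex. Angptl1 and Ugp2 lie above all other arrays in all 6 thyroid arrays, Chga in 4 of 6, and Asgr1 is high in the 2 female thyroids.

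Of 909 genes, 61 were higher in thyroid than the mean of the 7 tissues (6.71% of those tested) and 67 were lower (7.37%), at an adjusted p under 0.05 and a log2 difference of at least 1. The median difference over all genes was -0.04. Thyroid was the highest of the 8 tissues for 99 genes and the lowest for 52. Only 5 genes (0.55%) were higher than in each of the 7 tissues, namely Angptl1, Chodl, Gnpnat1, B3galnt2 and Ugp2. None was lower than each (0% of those tested): 8 genes were below all 7 tissues at an unadjusted p under 0.05, and 0 of these by at least 1. All 6 thyroid arrays lay above all 50 others for 6 genes (0.66%), which were Angptl1, B3galnt2, Ugp2, the phosphoglucomutase gene Pgm1, Mrpl27 of the mitochondrial ribosome and Snrnp27 of the spliceosome. For 0 genes (0%) did they all lie below.

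**Figure D2:**
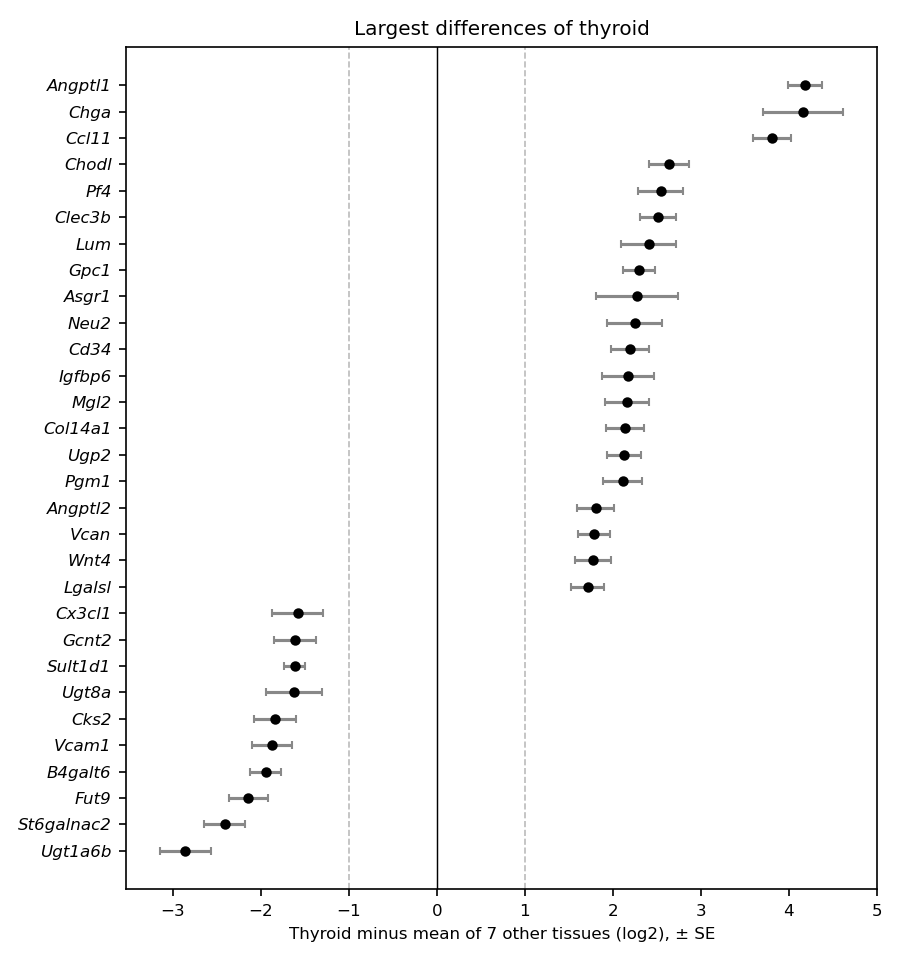
Points are the log2 differences of thyroid from the mean of the 7 other tissues with standard errors, for the 20 largest upward and 10 largest downward calls, and dashed lines mark a difference of 1. Angptl1 at 4.18 and Chga at 4.17 lead, and Ugt1a6b at -2.86 is lowest.

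Ugp2, which makes UDP-glucose, read 10.08, 10.55 and 9.85 in WT and 10.50, 10.48 and 10.06 in KO thyroid. All exceeded the highest array elsewhere, a thymus array at 9.66, and the difference from the mean of the 7 tissues was 2.13 ± 0.19 (adjusted p = 1.89e-13). Pgm1, which interconverts glucose 6-phosphate and glucose 1-phosphate, averaged 11.65 ± 0.23 (SD, n = 6) and was 2.11 ± 0.22 above the mean. It was called against 6 tissues and stood 0.82 above mammary gland. Gnpnat1, which acetylates glucosamine 6-phosphate on the way to UDP-N-acetylglucosamine, read 6.27, 7.04 and 6.16 in WT and 6.51, 6.44 and 6.36 in KO, 1.60 ± 0.16 above the mean. Its lowest thyroid array touched the range of intestine, whose highest array read 6.18.

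Ugp2, Pgm1 and Gnpnat1 and neighbours on the same routes form a set of 12 genes, chosen after their values were seen. In this set 4 were higher, 1 lower and 7 not called, beside 6.71% and 7.37% over all genes. Ugp2, Pgm1 and Gnpnat1 are among the 4, so that count is set in part by the choice. Gfpt2, an isoform of the enzyme that makes glucosamine 6-phosphate, was higher by 1.43 ± 0.14, whereas its paralog Gfpt1 differed by -0.75 ± 0.16. Uap1, which completes UDP-N-acetylglucosamine, differed by 0.85 ± 0.14, Pgm3 by 0.11 ± 0.08 and the UDP-glucose dehydrogenase Ugdh by 0.18 ± 0.19. Pgm2 (-0.35), Uxs1 (0.07) and Gpi1 (0.31) were not called either. Hk1, the hexokinase at the entry of glucose, was lower by -1.56 ± 0.17. Testes lay furthest above thyroid for Hk1 (-4.98) and for Gfpt1 (-4.15). Hk1 was called lower than 4 tissues and Gfpt1 than 2. On the list named nucleotide sugar transporters 0 of 19 genes were higher and 2 were lower, beside 6.71% and 7.37% over all genes. The lower ones were Slc35f2 (-1.28) and Slc35a3 (-1.06), and the median of the list was -0.58.

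B3galnt2 adds N-acetylgalactosamine to the mannose-linked glycan of dystroglycan. It read 8.58, 8.81 and 7.89 in WT and 8.69, 8.71 and 8.31 in KO thyroid, 1.45 ± 0.12 above the mean of the 7 tissues (adjusted p = 1.25e-14). The lowest thyroid array was just above the highest mammary gland array, at 7.86. Among the 8 beta-N-acetylgalactosaminyltransferases measured it was the only one called higher, and B4galnt1 was called lower (-1.33 ± 0.28). That comparison includes 4 tissues from the line that lacks B4galnt1. Without intestine, or with female thyroid arrays only, the B4galnt1 call ended. The shares over all genes were 6.71% higher and 7.37% lower.

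Chodl, which encodes the C-type lectin chondrolectin, had a wide spread. The male thyroids read 7.76, 8.15, 6.32 and 6.76, and the females 5.56 and 4.56. Both females lay within the brain range of 4.19 to 5.70. The mean exceeded that of the 7 tissues by 2.64 ± 0.23 (adjusted p = 4.2e-14) and that of brain, the nearest, by 1.70.

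Genes of connective tissue made up the list with the highest median among the 40 lists with at least 5 measured genes. Of 8 measured markers of fibroblasts and connective tissue 5 were higher, 0 lower and 3 not called, beside 6.71% and 7.37% over all genes. Their median was 1.49, against -0.04 over all genes. Col14a1, a collagen of fibril surfaces, read 8.76 at the lowest, 8.83 in the median and 9.82 at the highest, 2.14 ± 0.22 above the mean of the 7 tissues. Lum (2.41 ± 0.31) and Dcn (1.58 ± 0.14) encode small leucine-rich proteoglycans that bind collagen fibrils, Clec3b (2.51 ± 0.21) encodes tetranectin, and Pdgfra (1.40 ± 0.19) is the platelet-derived growth factor receptor of fibroblasts. Bgn (0.55), Pdgfrb (0.28) and Fmod (-0.32) were not called.

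None of these 8 genes was higher in thyroid than in each of the 7 tissues. Clec3b stood only 0.08 above mammary gland. Col14a1, Lum, Dcn and Pdgfra were each called against 5 of 7 tissues, and not against mammary gland or thymus, where Lum was the higher by 1.07 and called. The mean log2 level of the 8 genes lay between 8.76 and 9.33 in the thyroid arrays, against 8.48 to 9.60 in mammary gland, 9.09 to 9.79 in thymus and 6.14 to 6.77 in brain. In total RNA, more cells of a type and more RNA per cell cannot be told apart. The female thyroids (8.83 and 8.84) lay within the range of the males.

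Of 16 other matrix proteoglycans and link proteins 1 was higher, 1 lower and 14 not called, with a median of -0.11. The higher one was Vcan, the large matrix proteoglycan versican (1.79 ± 0.18), and the lower one was Agrn (-1.05), agrin of basement membranes, whose call ended in 9 alternatives. Of 11 glypicans and syndecans, which carry heparan sulfate on the cell surface, 3 were higher, 0 lower and 8 not called, with a median of -0.11, beside 6.71% and 7.37% over all genes. These were Gpc1 (2.29 ± 0.18), Gpc3 (1.60 ± 0.16) and Sdc2 (1.26 ± 0.16), while Gpc4 (-0.94) and Sdc3 (-0.70) lay on the other side without a call. Gpc1 read 9.72, 10.46 and 8.91 in WT and 9.82, 10.07 and 8.84 in KO, the females being the lowest. Of 24 genes that build and edit heparan sulfate 2 were higher, the 3-O-sulfotransferase gene Hs3st5 (1.52 ± 0.17) and the extracellular sulfatase gene Sulf1 (1.05 ± 0.15), and 0 were lower, with a median of -0.03. Over all genes 6.71% were higher and 7.37% lower. Of 29 genes of chondroitin and keratan sulfate 0 were higher and 5 lower, with a median of -0.18. The lower ones were the chain polymerase gene Chsy1 (-1.42 ± 0.23) and the sulfotransferase genes Gal3st2 (-1.32), Chst4 (-1.23), Chst1 (-1.12) and Chst3 (-1.03). Sulf1 and each of these 5 lost the call in at least 1 alternative, such as a tissue left out, and Chsy1 did so within the St6galnac2 line.

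Of 9 angiopoietins and angiopoietin-like genes 2 were higher and 0 lower, with a median of 0.37, beside 6.71% and 7.37% over all genes. Beside Angptl1 this was Angptl2 (1.81 ± 0.21), which mammary gland exceeded by 0.22. Angpt1 (-0.54), Angpt2 (-0.33) and Angptl4 (0.59), which act on vessels or on lipoprotein lipase, were not called. Of 9 endothelial markers only Cd34, also a gene of fibroblasts and blood progenitors, was higher (2.19 ± 0.22), and Pecam1 (-0.25) and Emcn (-0.20) were not called.

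The chemokine genes with the largest values were Ccl11 and Pf4. Ccl11, the eosinophil attractant eotaxin, read 10.14, 9.72 and 9.44 in WT and 9.49, 9.95 and 9.38 in KO thyroid. Its difference from the mean of the 7 tissues was 3.81 ± 0.22 (adjusted p = 6.02e-21). It was called against all tissues but mammary gland, whose highest arrays overlapped the thyroid range. Pf4, platelet factor 4, read 11.17, 10.76 and 10.29 in WT and 10.33, 10.88 and 10.54 in KO. It was 2.54 ± 0.26 above the mean but 0.38 below thymus. Mammary gland arrays read 9.95 to 12.04 for Pf4, a range that holds all the thyroid values. The platelet genes Ppbp (0.11), Selp (0.11) and Clec1b (-0.56) were not called.

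Ccl21a (1.35 ± 0.33) and Ccl21c (1.29 ± 0.31), which draw T cells and dendritic cells, exceeded all tissues but lymph node. They are near-identical copies whose probe sets could detect each other, so both values are uncertain, and Ccl21a ended at 0.26 within the St6galnac2 line. Of 29 chemokine genes 3 were higher (Ccl21c was not on the list), 1 was lower (Cx3cl1 at -1.58 ± 0.29) and 25 were not called. Over all genes 6.71% were higher and 7.37% lower.

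C-type lectins gave 9 higher and 0 lower of 43 measured, with 34 not called and a median of 0.11, beside 6.71% and 7.37% over all genes. Those of macrophages were Mgl2 (2.16 ± 0.25) and Clec10a (1.44 ± 0.21), which bind galactose and N-acetylgalactosamine, the mannose receptor Mrc1 (1.49 ± 0.16) and Clec4a3 (1.16 ± 0.17). Mgl2 lay between 8.31 and 8.68 on all 6 arrays, and mammary gland exceeded it by 1.08. Cd248 (1.65 ± 0.19) and Mrc2 (1.04 ± 0.13) are lectins of stromal cells. Of 16 macrophage and dendritic cell genes 4 were higher, 1 lower (the fractalkine receptor Cx3cr1 at -1.48 ± 0.24) and 11 not called. Their mean log2 level was 5.798 to 6.175 in female and 5.942 to 6.108 in male thyroids. It was higher in mammary gland (6.436 to 7.649) and lymph node (6.58 to 7.274), and lower in brain (4.562 to 4.911). With arrays centred on their medians 8 lectins were higher and 1 lower, and after a second quantile normalization 10 and 3. Clec4a3 and Mrc2 lost the call in several alternatives, and Cx3cr1 with female thyroid arrays only.

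The hepatocyte lectin gene Asgr1 was called higher at 2.27 ± 0.46 (adjusted p = 3.64e-05), but the call rests on the female thyroids. These read 11.17 and 10.32, and the 4 males 5.72, 5.23, 4.56 and 4.16. With male thyroid arrays only, the difference was 0.33 ± 0.27 and the call ended.

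The calls in growth factor lists stand beside 6.71% higher and 7.37% lower over all genes. In the insulin-like growth factor axis 3 of 13 genes were higher, 2 lower and 8 not called. The binding proteins Igfbp6 (2.17 ± 0.30) and Igfbp5 (1.51 ± 0.22) and the ligand Igf1 (1.09 ± 0.22) were higher, and the binding proteins Igfbp2 (-1.45 ± 0.26) and Igfbp3 (-1.20 ± 0.26) lower. Igf1 lost its call in 8 alternatives, among them without 9362, without 9361 and with female thyroid arrays only (0.55). Igfbp3 lost it within the St6galnac2 line, without 9100, without kidney and with female thyroid arrays only (-0.32). Igfbp5 lost it without testes, and Igfbp2 without brain and with wild-type arrays only. Of 24 genes of the TGF-beta and BMP system 3 were higher, the ligands Bmp5 (1.68 ± 0.14) and Tgfb3 (1.43 ± 0.17) and the receptor Bmpr1a (1.14 ± 0.18), and 0 lower. Of 24 Wnt and Frizzled genes 3 were higher, the ligand Wnt4 (1.77 ± 0.21) and the receptors Fzd7 (1.43 ± 0.30) and Fzd4 (1.12 ± 0.18), and 0 lower. With female thyroid arrays only, Tgfb3, Bmpr1a and Fzd4 lost the call. Wnt4 read 6.97 to 7.89 on the 6 arrays and was called against all tissues but brain. The epidermal growth factor receptor Egfr was higher by 1.58 ± 0.21 on the probe set used and differed by 0.43 ± 0.18 on the other.

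Sialyltransferases split. Of 19 genes 5 were higher, 4 lower and 10 not called, beside 6.71% and 7.37% over all genes, with a median of -0.04. The higher ones were St3gal6 (1.55 ± 0.26), St3gal2 (1.52 ± 0.16), St3gal5 (1.40 ± 0.12), St8sia5 (1.07 ± 0.15) and St3gal3 (1.04 ± 0.15). St3gal3 lost the call in 7 alternatives, among them arrays centred on their medians, without 9100 and without 9099. St8sia5 lost it in 8, among them within the St6galnac2 line, with wild-type arrays only and without 9100. St3gal5 and St3gal6 lost it with female thyroid arrays only, as did St3gal3 and St8sia5. The targeted St6galnac2 (-2.41 ± 0.24), St8sia1 (-1.37 ± 0.18), St3gal4 (-1.24 ± 0.20) and St8sia6 (-1.21 ± 0.19) were lower. St3gal4 lost the call without intestine. St6galnac2 was lower by only 1.06 within the St6galnac2 line, and still called. Testes held the highest level of it, at 12.30 ± 0.46 (SD, n = 6), and brain read 5.72 ± 0.17 (n = 9), beside 5.87 ± 0.26 in thyroid.

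Glycosphingolipid synthesis gave 5 lower, 2 higher and 9 not called of 16, with a median of -0.80, beside 7.37% and 6.71% over all genes. The lower genes included both entry enzymes, the glucosylceramide synthase gene Ugcg (-1.19 ± 0.17) and the galactosylceramide synthase gene Ugt8a (-1.62 ± 0.32), and the lactosylceramide synthase gene B4galt6 (-1.95 ± 0.18). St8sia1, which makes ganglioside GD3, and B4galnt1, which makes GM2 and GD2, were lower as given above, while St3gal5, which makes GM3 from lactosylceramide, was higher. St3gal5 read 9.66, 9.96 and 8.79 in WT and 9.50, 10.10 and 8.80 in KO. B4galt6 lay between 4.55 and 5.60 on the 6 arrays and was called lower than 5 tissues, though testes were within 0.03 of it. Of the 5 lower genes B4galt6 kept its call in every alternative run. Ugt8a lost it without brain (its highest tissue), Ugcg without intestine (-0.90), and St8sia1 without brain or kidney.

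Lysosomal hydrolases were lower in 5 of 25 genes, with 1 higher and 19 not called, beside 7.37% lower and 6.71% higher over all genes. The lower ones were the sulfatase genes Arsb (-1.28 ± 0.18) and Arsa (-1.27 ± 0.11), the sialidase gene Neu1 (-1.27 ± 0.13), the beta-galactosidase gene Glb1 (-1.26 ± 0.13) and Naglu (-1.14 ± 0.13). Of these, Arsb, Neu1, Glb1 and Naglu lost the call when kidney was left out, and Arsa and Naglu when testes were. Within the St6galnac2 line Arsb (-0.96), Glb1 (-0.82) and Naglu (-0.65) were not called, nor with female thyroid arrays only (-0.85, -0.87 and -0.56). The higher gene was the cytosolic sialidase Neu2, at 9.16, 8.03 and 8.78 in WT and 9.15, 8.63 and 8.60 in KO, 2.25 ± 0.31 above the mean.

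Polypeptide N-acetylgalactosaminyltransferases start mucin-type O-glycans. They gave 0 higher and 4 lower of 19, beside 6.71% and 7.37% over all genes, with a median of -0.26. These were Galnt6 (-1.20 ± 0.17), Galnt4 (-1.15 ± 0.19), Galntl5 (-1.14 ± 0.14) and Galnt18 (-1.07 ± 0.14). Galntl5 rests on testes, which exceeded thyroid by 8.23, and Galnt6 (-0.70) and Galnt4 (-0.75) lost the call without intestine. Galnt18 lost it without brain, without kidney, within the St6galnac2 line and with male thyroid arrays only. Among 27 genes of O-glycan cores and chain extension 1 was higher, B3galt1 (1.22 ± 0.14), and 4 lower, beside the same shares over all genes. The lower ones include the I-branching enzyme gene Gcnt2 (-1.61 ± 0.24) and B3gnt2 (-1.27 ± 0.17). B3galt1 lost the call within the St6galnac2 line (0.90) and with female thyroid arrays only (0.92). The lowest differences of all were the detoxifying glucuronosyltransferase gene Ugt1a6b (-2.86 ± 0.29) and, after St6galnac2, Fut9 (-2.14 ± 0.22), which makes the Lewis x epitope and was one of the genes by which arrays were kept. Vcam1 (-1.87 ± 0.22), an adhesion molecule for leukocytes, Cks2 (-1.84 ± 0.24) of the cell cycle and the sulfotransferase gene Sult1d1 (-1.61 ± 0.12) were among the other 10 lowest. Lgals1 (1.49 ± 0.21) and Lgalsl (1.72 ± 0.19) were the higher galectins, and Lgals2 (-1.15 ± 0.09), an intestinal galectin, the lower one, of 9. Lgals2 lost the call without intestine.

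Markers of other cell types were low or absent from the calls, beside 6.71% higher and 7.37% lower over all genes. Of 8 intestinal epithelial genes 0 were higher and 4 lower, with a mean log2 level of 5.33 to 5.55 in thyroid and 10.88 to 11.42 in intestine. The lower ones, Reg3b, Reg1, Lgals2 and Galnt4, each lost the call without intestine. The remaining tissues lay near thyroid, with medians of this level from 5.23 in brain to 5.67 in testes. Of 5 B cell genes 0 were called, and their mean level was 4.81 to 5.25 against 7.12 to 9.69 in lymph node. Here too the remaining tissues were near thyroid, with medians from 4.48 in brain to 5.34 in testes. Of 7 neuronal genes L1cam was lower (-1.56), as was Fut9, by which brain and intestine arrays were kept or left out, so its value is set in part by that choice. Skeletal muscle and fat were each represented by a single gene and cartilage by 2, none called, so their presence could hardly be judged.

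Thyroid was nearest to mammary gland and thymus. Across 909 genes the thyroid profile correlated at 0.318 with mammary gland and 0.300 with thymus, on the same relative scale, and at -0.078 or below with the other 5. These are descriptions across genes, which are not independent replicates. Against mammary gland 30 genes were higher (3.3%) and 100 lower (11%), and against thymus 36 (3.96%) and 73 (8.03%). Against lymph node 91 were higher (10%) and 116 lower (12.8%), and against kidney 93 (10.2%) and 126 (13.9%). Against testes 163 were higher (17.9%) and 101 lower (11.1%). Against intestine 108 were higher (11.9%) and 154 lower (16.9%), and against brain 88 (9.68%) and 168 (18.5%). Without thymus 66 genes were higher and 89 lower than the mean of the remaining tissues, and without mammary gland 70 and 82.

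**Figure D3:**
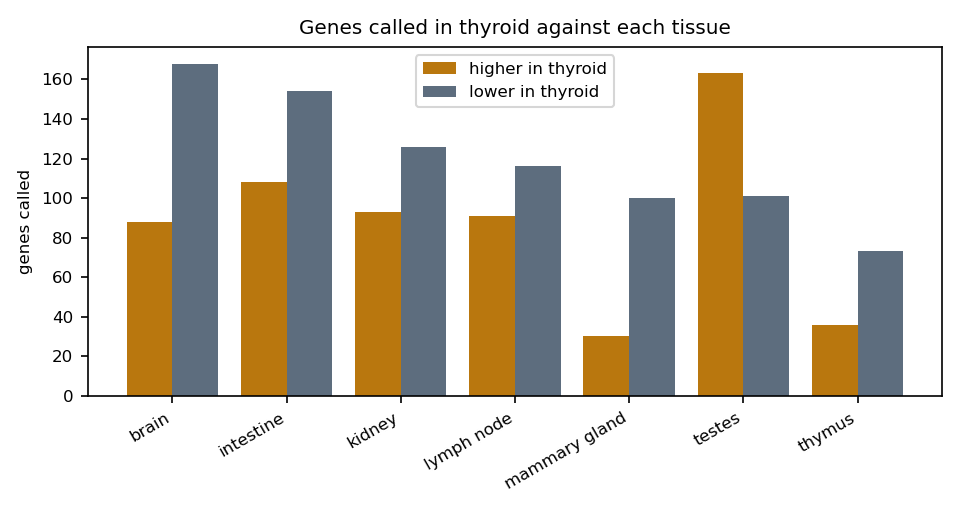
Bars are numbers of genes, of 909, called higher or lower in thyroid than in each of 7 tissues at an adjusted p under 0.05 and a log2 difference of at least 1. Mammary gland has the fewest higher calls, 30, and brain the most lower calls, 168.

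The 6 thyroid arrays differed among themselves in a few genes by far more than in most. The largest standard deviations were those of Chga (3.23), Asgr1 (3.07) and the B cell chemokine gene Cxcl13 (2.56), followed by Prol1 (1.71), Fgfr2 (1.60), Papss2 (1.39), Chodl (1.35), Esm1 (1.29), Igf2 (1.28) and Il18r1 (1.22). For Asgr1, Cxcl13, Prol1, Fgfr2, Papss2, Esm1 and Il18r1 both females lay above all 4 males, and for Chodl below. For Prol1 the WT female (2.998) was close to the highest male (2.88). The comparison of sexes was added after these values were seen. Over all genes the deviations of the 2 females from the thyroid mean correlated at 0.573, those of a female with a male at -0.584 to -0.308, and those of 2 males at -0.304 to 0.294. Deviations from the mean of the same arrays are negatively related by construction.

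Between sexes, 32 genes were higher (3.52%) and 8 lower (0.88%) in the 2 female than in the 4 male thyroids, at an adjusted p under 0.05 (limma with genotype as a covariate). Of these 20 were higher and 5 lower by at least 2-fold. The groups did not overlap, with females higher, for 123 genes (13.5%) and, with females lower, for 110 (12.1%). In groups this small some genes separate without any sex effect, and their share was not estimated. The females also have neighbouring animal numbers, so sex and the pair of animals cannot be told apart. Only 2 females stand behind every value.

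Asgr1 differed most, by 5.83 ± 0.21 (adjusted p = 4.4e-07). Cxcl13 read 9.15 and 10.04 in females and 3.83 to 6.92 in males (4.51 ± 0.66). The growth factor receptor gene Fgfr2 read 9.19 and 8.67 in females and, in males, 7.26 and 6.98 in WT and 5.26 and 5.49 in KO (2.69 ± 0.27). Papss2, which makes the sulfate donor of sulfotransferases, read 10.04 and 9.22 in females and 6.57 to 7.22 in males (2.61 ± 0.21), and its paralog Papss1 was higher by 0.89 ± 0.18. The endothelial proteoglycan gene Esm1 was higher by 2.49 ± 0.18 on the probe set used and by 0.43 on a dim second one. The interleukin 18 receptor gene Il18r1 (2.34 ± 0.18), the Frizzled receptor gene Fzd6 (2.20 ± 0.19), the chondroitin 4-O-sulfotransferase gene Chst11 (1.88 ± 0.17), Tenm4 (1.82 ± 0.19), the lysosomal sulfatase gene Galns (1.81 ± 0.27), the adhesion molecule gene Icam1 (1.77 ± 0.29) and the syndecan gene Sdc4 (1.28 ± 0.19) followed. Lower in females were Chodl (-2.19 ± 0.48), Gpc1 (-1.14 ± 0.23), the Golgi protein gene Golm1 (-1.10 ± 0.19) and St3gal5 (-1.01 ± 0.21).

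Few genes of the cell type lists were called between the sexes, and in lists this small the shares over all genes (3.52% and 0.88%) would give few. Of 8 connective tissue, 5 T cell, 5 B cell and 10 natural killer cell genes 0 were called, of 9 endothelial genes 1 (Esm1) of 16 macrophage genes 1 (Cx3cr1), each higher in females, and of 8 intestinal epithelial genes 1, the chemokine gene Ccl25, lower in females. The median female minus male difference was -0.31 over the connective tissue genes, -0.59 over 4 platelet genes and 2.24 for Prol1, the only exocrine gland gene. The Prol1 value rests on the KO female 9093, at 6.95. The WT female 9094 read 2.998, beside 2.55 to 2.88 in the males. The mean log2 level of the endothelial genes was 6.76 and 6.84 in females and 6.24 to 6.94 in males. Chga, at 13.02 and 12.83 in females and 5.77 to 13.06 in males, was not called.

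**Figure D4:**
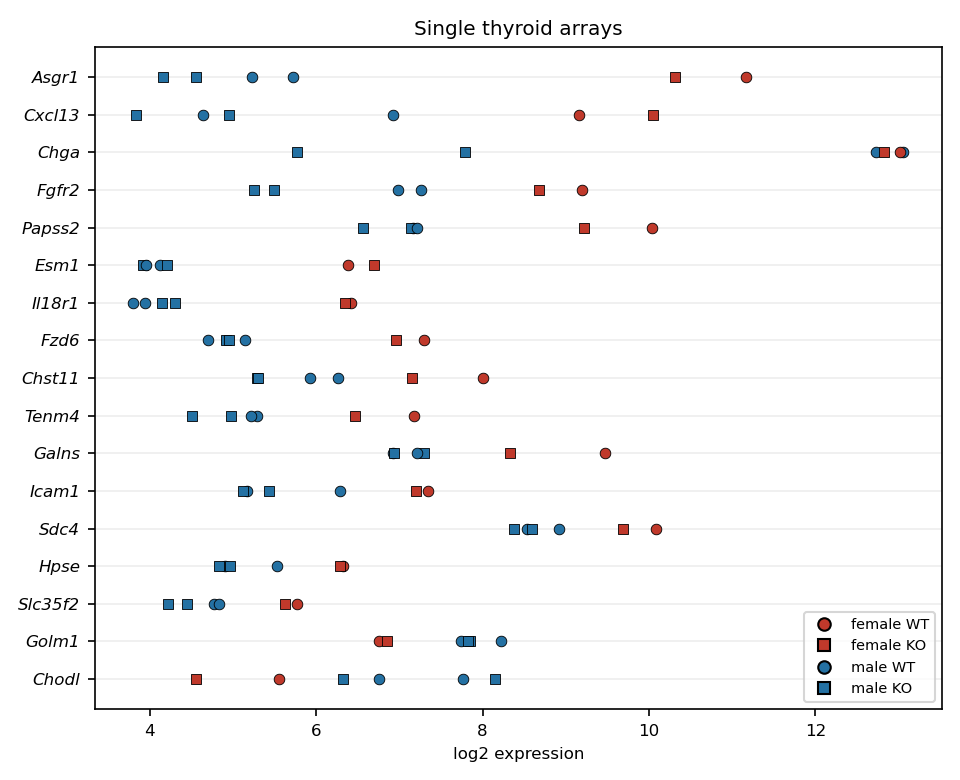
Each symbol is the log2 expression of 1 gene on 1 thyroid array, for the 15 genes with the smallest p between sexes and for Chodl and Chga, with colour for sex and shape for genotype. The 2 females lie above all 4 males for 14 of these genes and below them for Golm1 and Chodl, while the low Chga values are the 2 KO males.

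The sex difference in thyroid was then set against the mean sex difference in brain, intestine and lymph node of the same line. The female minus male difference was more positive in thyroid for 17 genes (1.87%) and more negative for 5 (0.55%), at an adjusted p under 0.05 for the interaction in limma. Chodl and St3gal5 are among the 5, being lower in female thyroids (-2.19 and -1.01). Of these 22 genes 19 were also called between the sexes of thyroid, a difference that is itself part of this contrast. Asgr1 differed between the sexes by -1.43 in brain, -0.05 in intestine and -0.19 in lymph node. Cxcl13 differed by 0.21, -0.28 and -0.78 in these tissues. Tenm4, higher in female lymph node (1.60) and brain (0.97) as well, did not pass the interaction test.

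**Figure D5:**
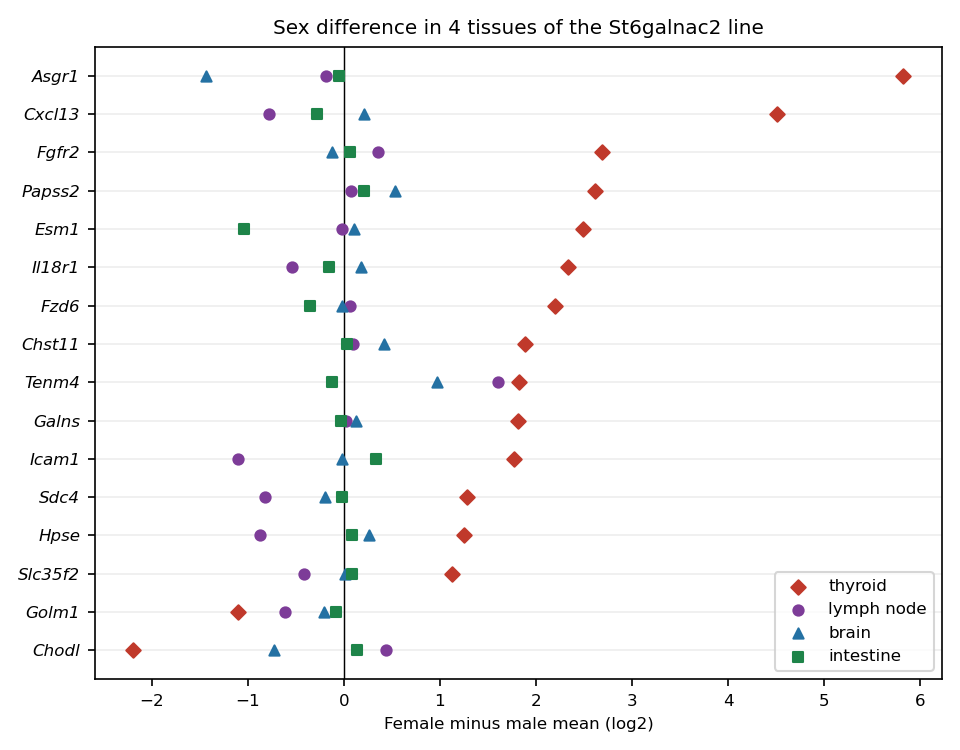
Symbols are female minus male differences in mean log2 expression in thyroid, lymph node, brain and intestine of the St6galnac2 line, for the same genes without Chga. Asgr1 stands at 5.83 in thyroid and at -1.43 to -0.05 in the others.

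The arrays labelled KO and WT were compared with sex as a covariate. St6galnac2 itself, on chromosome 11, read 5.77, 5.49 and 5.94 on the WT and 5.79, 5.97 and 6.27 on the KO arrays, a difference of 0.28 ± 0.16 (adjusted p = 0.989). Where its probe set lies relative to the targeted part is not given in the sources used here, so these readings check nothing about the genotype. By limma 0 of 909 genes were called (0%), 36 had an unadjusted p under 0.05, and the smallest adjusted p was 0.186. The smallest p-values were those of Fgfr2 (-1.34), Asgr1 (-1.03), Chst11 (-0.82), Fmod (-0.87) and Igfbp2 (-0.75), and Chga differed by -4.14 ± 1.02 (adjusted p = 0.383). Without the array of 9094 or of 9093 the sex term takes up the remaining female, and the 4 males alone gave a Chga difference of -6.12 (adjusted p = 0.00408 in limma) and 2 called genes. Over the other alternatives the adjusted p of Chga was 0.141 to 0.999.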

How the data were processed

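Total RNA of each tissue was hybridised to a custom Affymetrix array of 1246 probe sets. The deposited values are log2 expression made by the authors with RMA, per the submitters' processing notes. Its version, and whether all arrays were normalized together, are not given in the sources used here. Values lay between 2.113 and 14.069 and were used as deposited.

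Gene symbols came from RefSeq accessions matched to a GRCm38.p6 gene table. Of 1246 probe sets 963 matched (909 genes) and 283 did not. A gene with several probe sets (48 genes) is represented by the one with the highest mean over all arrays. Of the named probe sets 217 have a suffix for probes shared with other transcripts.

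The 4 arrays named in the report were left out. A linear model with the tissue as factor was fitted with limma 3.58.1 in R 4.3.3, 2-sided, with Benjamini-Hochberg adjustment over 963 probe sets, and genes were counted over 909. Tissue calls needed an adjusted p under 0.05 and a log2 difference of at least 1. KO (with sex) and sex (with genotype) were tested on the 6 thyroid arrays at an adjusted p under 0.05. The sex interaction used the kept arrays of the line. Errors are SE beside differences and SD beside means. The number of arrays limits the precision. Replicates are animals. In the tissue comparisons each gene has 1 spread pooled over the animals of all 8 tissues. Their SEs and p-values therefore do not measure the spread within thyroid alone. That spread enters them diluted, as for Chga, Asgr1 and Chodl, which vary widely in thyroid.

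Named were the markers Chga, Angptl1, Pf4 and Col14a1, the target St6galnac2, the 20 largest differences up and 10 down, all genes higher than each tissue, called members of lists by smallest p, the 5 smallest p for KO and the 10 largest SDs. Sex genes were named by smallest p, with a few more by size. The members, the lists and the tests were chosen with earlier results of these data known. The lists are described by counts and medians, with no set test. The fits were tested on simulated data. No column of unmapped samples was found (0). The result for 1 gene is not reported here.

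The same animals gave several tissues, so the animal numbers in the labels pair the arrays. Deviations of arrays of 1 animal in 2 tissues correlated at a median of 0.01 (16 pairs), and of different animals at -0.023 (32 pairs).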

Additional observations from a re-analysis of the deposited data

Results flagged for a closer look

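In a group of 6 arrays an array was looked at again when its gap to the nearest other array, divided by the range, passed Dixon's critical value. Of 127 genes looked at, 2 did so, and chance flags about 1 in 20. Prol1 read 6.95 on the array of the KO female 9093 2.998 on that of the WT female 9094 and between 2.55 and 2.88 in the 4 males, a gap of 0.899 of the range. Muc13 read 6.29 on the array of the WT female 9094 and at least 6.61 on the others, a gap of 0.636.

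The female minus male difference in thyroid departed from its mean in brain, intestine and lymph node for 15 of the genes named. This was by the interaction test in limma at an adjusted p under 0.05. Most of these genes were named by smallest p for the thyroid sex difference, which is part of this contrast. The number passing is therefore set in part by that choice. Among all genes 1.87% had a more positive difference in thyroid and 0.55% a more negative one. The difference of sex differences was 6.38 for Asgr1, 4.80 for Cxcl13, 2.81 for Esm1, 2.59 for Fgfr2, 2.50 for Il18r1, 2.34 for Papss2 and 2.30 for Fzd6. It was 1.77 for Galns, 1.70 for Chst11, 1.62 for Sdc4, 1.29 for Bmp5, 1.23 for Slc35f2 and 0.93 for Naglu. It was -2.14 for Chodl and -1.04 for St3gal5, which were lower in female thyroids. Each rests on the same 2 females.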

How the results depend on the processing

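With the animal as a replicate block (correlation 0.073) the counts stayed at 61 higher, 67 lower, 5 higher than each tissue and 0 lower than each, and the interaction gave 19 genes. Within the St6galnac2 line, with 3 tissues left to compare, 125 genes were lower than the mean (53 shared with the 67), 29 higher than each and 6 lower than each. With wild-type arrays only, 3 genes were higher than each tissue (2 of the 5 among them), with a second quantile normalization 8 (4 of the 5), and with female thyroid arrays only 5 (2 of the 5). With male thyroid arrays only (like the female ones, chosen after seeing the data) 1 gene was lower than each tissue. KO against WT gave 1 gene with all kept arrays of the line in one fit. Between sexes, arrays centred on their medians left 24 genes.

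Leaving out each array in turn gave 56 to 63 higher genes, 64 to 77 lower, 5 to 8 higher than each (8 without the KO thyroid of 9361), 0 to 0 lower than each, 0 to 2 for KO, 9 to 49 between sexes and 12 to 19 for the interaction. The sex count was 17 without 9362, 16 without 9099, 12 without 9094 and 9 without 9093, and the interaction count 12 without 9094. With 1 female left, that array is assumed to vary like the males.

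Galntl5 turned to 0.18 in the St6galnac2 line only and to 0.038 without testes. The interaction of Igfbp2, not called, turned to 0.24 without 9093 and was -0.81 without 9094. Of 99 genes looked at 44 kept direction and call under every alternative, over all of which 7790 values were unchanged in call, 254 lost it, 10 gained it and 3 reversed. The causes were not tested. Signal limits what can be seen: values under 4.211, the 25th percentile of all values, leave little room for a lower level.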

Other observations

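Among the 283 probe sets without a gene name here, 11 were called higher and 4 lower in thyroid than the mean of the 7 tissues, and 2 were higher than each tissue. Igf2, an insulin-like growth factor of fetal growth, read 10.96 and 10.40 on the arrays of males 9362 (WT) and 9361 (KO) and 7.92 to 8.55 on the other 4 thyroid arrays.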
